A study of Mus musculus with 17 samples.

Results

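The genes described here are Eomes and 8 proneural and neuronal differentiation factors of the basic helix-loop-helix (bHLH) class: Neurog1, Neurog2, Neurod1, Neurod2, Neurod4, Neurod6, Nhlh1 and Nhlh2. They were chosen by symbol: every probe set annotated with 1 of these 9 symbols was taken, which gave 16 of the 34945 probe sets with 1 symbol, and 9 of 18193 genes. Each of the 17 arrays held total RNA from cortical cells sorted out of embryos of hGFAP-eGFP mice. All groups thus carry the same transgene, green fluorescent protein (GFP) under the promoter of human GFAP, and GFP follows that promoter and not a single cell type. The groups were E18 GFP-positive cells gated for Prominin (n = 4), E14 GFP-high cells gated for Prominin (n = 4), E14 GFP-low cells gated for Prominin (n = 3), E14 GFP-high cells whose labels name no Prominin gate (n = 3) and E14 GFP-low cells whose labels name none (n = 3). The last 2 groups are called ungated. Prominin is a membrane protein of the apical surface of neural progenitors, E14 and E18 are embryonic days 14 and 18, and per the series' text radial glial subtypes were compared. Whether the samples of a group are of different litters is not in the labels, and the p-values then describe the spread from sample to sample only, which may be technical.

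In the developing cortex, radial glia at the ventricle divide to give neurons directly or through basal progenitors, which divide away from the ventricle. Neurogenins start neuronal differentiation in progenitors, Eomes (also known as Tbr2) marks basal progenitors, and NeuroD and Nhlh factors act later in cells that are becoming neurons. bHLH factors bind DNA as dimers, usually with ubiquitously expressed E proteins, at a short site called the E-box, whose letters are CANNTG. Their activity is held back by Id proteins, which take up E proteins, and by Hes and Hey repressors.

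All 9 genes had a window before their start in a RefSeq promoter table for GRCm38.p6, Neurod4 a second one for its other start, which made 10 windows of 250 bases each. Of these, 5 held at least 1 CANNTG, read on both strands, against 66.2% of all 32851 windows of this length in the table. The windows of Neurod1, Neurod2, Neurod6, Nhlh1 and Nhlh2 held it, and those of Eomes, Neurog1, Neurog2 and Neurod4 did not. The form CAGATG, which overlaps CANNTG by definition, was in 3 of the 10 windows and in 14.4% of all windows, and the form CAGCTG was in 0 of the 10 and in 13% of all. The 4 sequences shown are those of the 3 genes with CAGATG and, as an example of a window without any CANNTG, that of Eomes; each is read 5′ to 3′ along the gene's strand, and capitals mark CANNTG. They are the windows at chr9:118477939-118478188 on the plus strand for Eomes, chr11:98329646-98329895 on the minus strand for Neurod2, chr1:172057597-172057846 on the minus strand for Nhlh1 and chr3:102009895-102010144 on the plus strand for Nhlh2. A match is a description of these letters and not a binding site.
Eomes: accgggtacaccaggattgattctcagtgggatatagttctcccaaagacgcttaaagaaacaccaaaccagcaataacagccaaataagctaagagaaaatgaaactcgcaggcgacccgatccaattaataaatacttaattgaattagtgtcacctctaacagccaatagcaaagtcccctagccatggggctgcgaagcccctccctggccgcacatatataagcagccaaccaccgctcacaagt
Neurod2: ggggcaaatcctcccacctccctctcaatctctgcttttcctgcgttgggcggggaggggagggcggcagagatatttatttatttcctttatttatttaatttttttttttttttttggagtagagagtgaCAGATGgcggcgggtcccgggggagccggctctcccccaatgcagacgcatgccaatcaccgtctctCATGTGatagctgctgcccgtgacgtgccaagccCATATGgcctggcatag
Nhlh1: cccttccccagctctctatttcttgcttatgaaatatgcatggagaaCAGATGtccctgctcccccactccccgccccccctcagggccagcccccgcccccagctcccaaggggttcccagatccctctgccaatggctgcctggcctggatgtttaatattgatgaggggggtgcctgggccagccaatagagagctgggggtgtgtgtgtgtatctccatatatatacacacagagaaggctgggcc
Nhlh2: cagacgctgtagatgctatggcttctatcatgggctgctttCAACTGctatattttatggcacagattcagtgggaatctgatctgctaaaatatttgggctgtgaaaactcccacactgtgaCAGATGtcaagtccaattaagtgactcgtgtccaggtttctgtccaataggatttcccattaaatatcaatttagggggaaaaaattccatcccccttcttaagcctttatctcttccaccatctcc

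Levels are given as log2 of the deposited intensity plus a pseudocount of 16, after quantile normalisation over the 17 arrays, and a gene's level is that of its probe set with the highest mean. Group values are means ± SD over arrays. Fold changes are on this scale and understate those of dim genes. The median gene had a level of 6.29. A level of 6.07, the 95th percentile of the array values of 22 genes of other organs, is used as the background level, and where the lower group's mean is at or below it the difference is a bound, written "at least", of the brighter group's mean over the background level, with the adjusted p of the fit. By that measure all 9 genes were above background in both E14 GFP-high groups and in Prominin-selected E14 GFP-low cells. In ungated GFP-low cells 8 were, all but Neurod4, and at E18 there were 5, with Neurog1, Neurod4, Nhlh1 and Nhlh2 below it. Over all genes the share above background was between 51.1% (E18) and 52.9% (Prominin-selected GFP-low cells) in every group. The shares of all genes called, given below, include the genes under it. Levels of different genes come from different probes and are not set against each other.

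Per the labels, 12 arrays were made with a MessageAmp II kit, all Prominin-selected ones and that of ungated GFP-high replicate 1, and 5 with an Affymetrix kit. The Gapdh control's 3′ signal minus its 5′ signal, a log2 measure of RNA or label length, was −0.21 to 0.996 on the E18 arrays and 0.54 to 2.29 on the 7 arrays of Prominin-selected E14 cells, against −0.247 to 0.181 on the ungated arrays. The middle of 3 probe sets for 18S ribosomal RNA read 302 to 583 at E18 and 2290 to 5190 in Prominin-selected E14 cells, against 175 to 627 on the ungated arrays, while the 5′ one overlapped between E18 and Prominin-selected E14 cells, at 1270 to 6720 and 4530 to 9350. Of 14 radial glia markers 12 were above background at E18 and all 14 in each E14 group. Of 14 neuronal markers 13 were above it at E18 and in both Prominin-selected E14 groups, 11 in ungated GFP-high and 14 in ungated GFP-low cells. None of 8 endothelial and pericyte markers was above it in any group, and at most 1 of 7 microglial and 1 of 5 erythroid markers was. Contrasts across the gate or across age cross these differences, whose part in the results was not tested. The cells are bulk sorts, in which fewer cells of a type and less RNA per cell cannot be told apart.

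Neurog1 and Neurog2 are the neurogenins of cortical progenitors. Neurog1 had levels of 4.68, 4.21, 5.05 and 4.26 on the E18 arrays, 9.31, 9.22, 8.91 and 9.10 in E14 Prominin-selected GFP-high cells, and 7.93, 7.51 and 7.53 in E14 Prominin-selected GFP-low cells. In ungated cells it had 9.16, 9.77 and 8.71 in GFP-high and 6.10, 6.16 and 7.02 in GFP-low cells. Both GFP-high groups overlapped at the top of this order, and below them the Prominin-selected GFP-low, the ungated GFP-low and the E18 arrays formed separate steps. The E18 arrays were all under the background level, so that how far they lay below the others is not measured. Neurog2 was at 8.80, 8.79, 9.40 and 9.57 at E18, at 11.05, 11.49, 11.78 and 11.94 in Prominin-selected GFP-high cells, and at 11.22, 10.79 and 11.07 in Prominin-selected GFP-low cells. Its ungated levels were 12.38, 12.31 and 12.51 in GFP-high and 9.78, 9.84 and 10.72 in GFP-low cells. The ungated GFP-high arrays were thus above all others, the Prominin-selected groups of E14 overlapped each other, and the E18 arrays were the lowest, with every E18 value under every E14 value.

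Eomes, a T-box factor and not of the bHLH class, was at 9.43, 9.61, 10.03 and 10.07 at E18, at 12.02, 12.03, 12.03 and 12.11 in Prominin-selected GFP-high cells, and at 11.59, 11.42 and 11.44 in Prominin-selected GFP-low cells. Ungated GFP-high cells had 11.95, 12.15 and 12.15, against 9.53, 9.54 and 10.22 in ungated GFP-low cells. The groups formed a high pair of both GFP-high sorts, a step below them for Prominin-selected GFP-low cells, and a low pair of E18 and ungated GFP-low cells whose ranges overlapped. Neurod4, a bHLH factor related to atonal that acts in neurogenesis, followed the same order. It was at 5.10, 5.73, 5.71 and 5.66 at E18, at 7.21, 7.38, 7.65 and 7.82 in Prominin-selected GFP-high cells, and at 6.90, 7.24 and 6.82 in Prominin-selected GFP-low cells. In ungated cells its levels were 7.46, 7.98 and 7.72 in GFP-high and 5.94, 5.38 and 5.27 in GFP-low cells, so that both low groups lay under the background level.

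**Figure D1:**
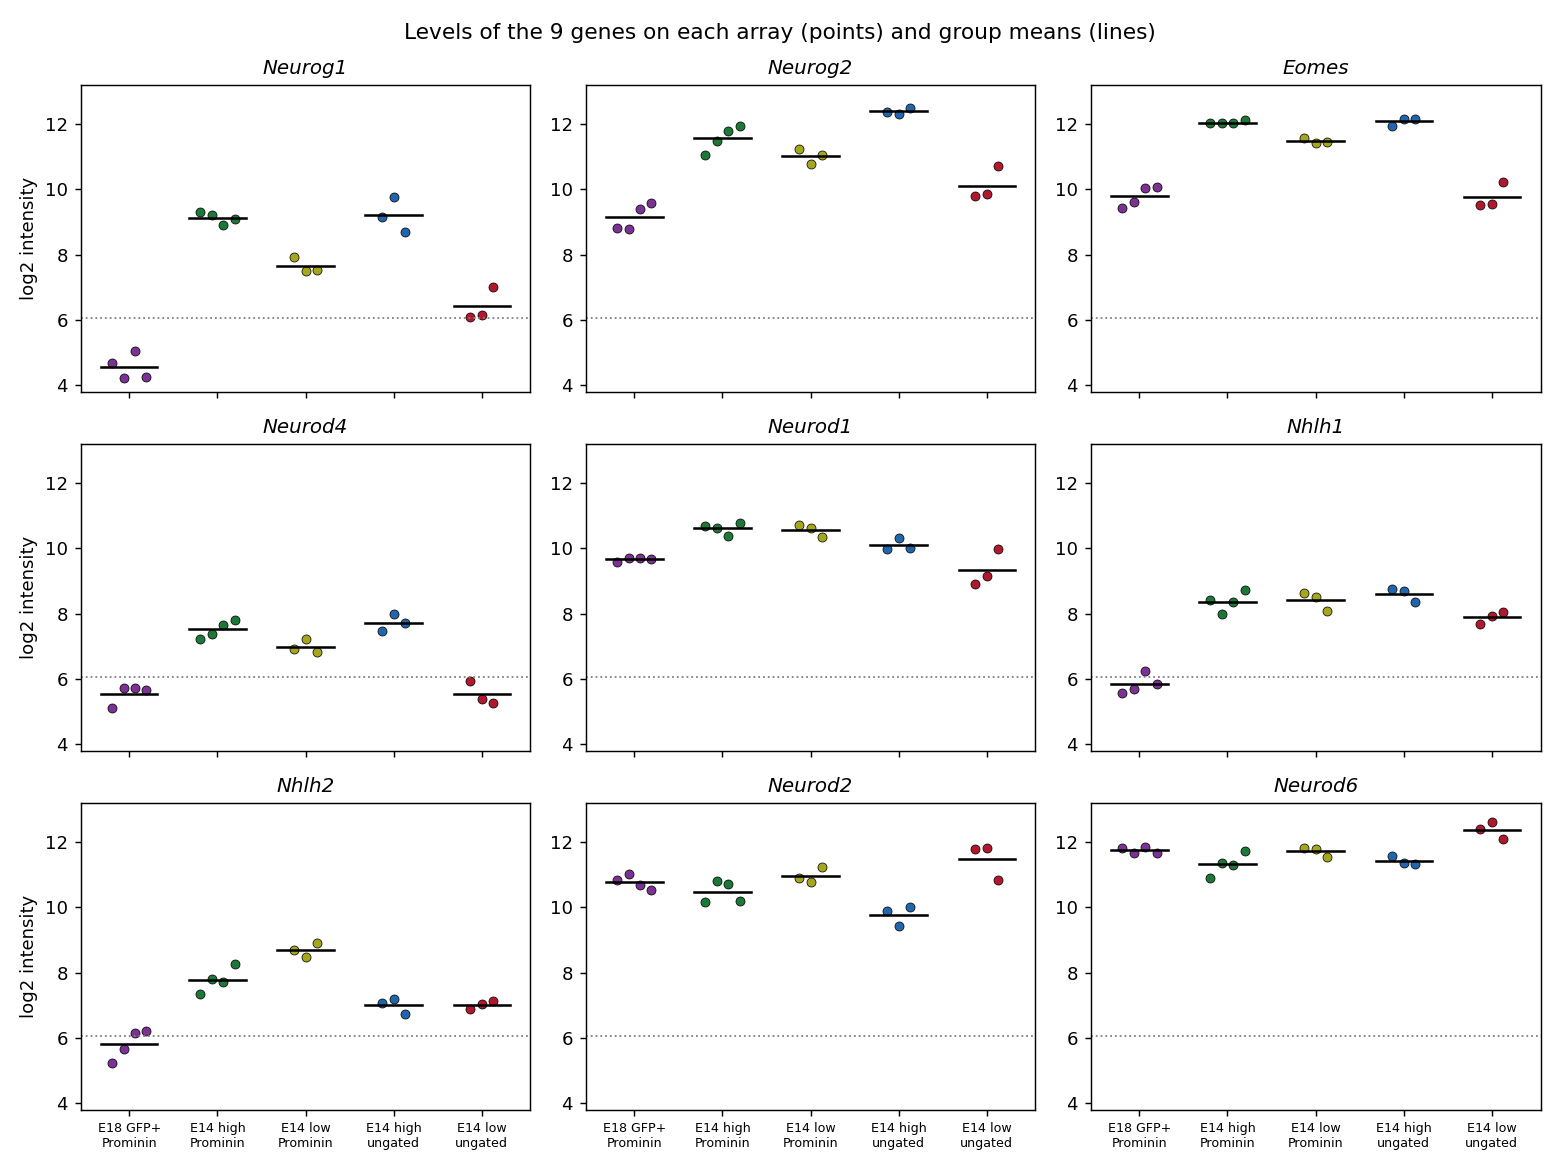
Level of each of the 9 genes on each array, as log2 of intensity plus 16 after quantile normalisation (vertical axis), by group (horizontal axis); points are arrays, black lines are group means and the dotted line is the background level of 6.07. Neurog1 drops to a mean of 4.55 at E18, under the dotted line, whereas Neurod2 and Neurod6 stay far above it in every group and are highest in ungated GFP-low cells, at 11.49 and 12.38.

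Neurod1, which acts in basal progenitors and newly formed neurons, had a span of 1.27 between its highest and lowest group means, and a second probe set, of like brightness, had group means from 8.33 to 10.98. It was at 9.59, 9.71, 9.71 and 9.67 at E18, at 10.69, 10.64, 10.39 and 10.79 in Prominin-selected GFP-high cells, and at 10.70, 10.61 and 10.35 in Prominin-selected GFP-low cells. Ungated cells had 9.99, 10.32 and 10.00 in GFP-high, against 8.90, 9.16 and 9.98 in GFP-low sorts. The 2 Prominin-selected E14 groups overlapped at the top, while the spread of the ungated GFP-low arrays covered the E18 values. The second probe set placed E18, at 10.10 ± 0.16, above ungated GFP-high cells, at 9.11 ± 0.36, where the first had the reverse order.

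Nhlh1 and Nhlh2 are closely related bHLH genes of early neurons, and they differed in their order of groups. Nhlh1 averaged 5.84 ± 0.29 at E18, against 8.37 ± 0.30 and 8.41 ± 0.29 in Prominin-selected GFP-high and GFP-low cells and 8.60 ± 0.22 and 7.89 ± 0.19 in ungated GFP-high and GFP-low cells. The 4 E14 groups overlapped their neighbours in the order of levels, and the E18 arrays, at 5.58 to 6.25, were all under them. Nhlh2 was at 5.23, 5.65, 6.16 and 6.22 at E18, at 7.34, 7.81, 7.72 and 8.26 in Prominin-selected GFP-high cells, and at 8.70, 8.48 and 8.92 in Prominin-selected GFP-low cells. Its ungated levels were 7.07, 7.20 and 6.72 in GFP-high and 6.87, 7.03 and 7.15 in GFP-low cells. Of the 9 genes, Nhlh2 was the one whose highest group mean was in Prominin-selected GFP-low cells, and its ranges in the 2 ungated groups overlapped.

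Neurod2 and Neurod6, which act in postmitotic projection neurons, were instead highest in ungated GFP-low cells by the probe sets used. Neurod2 was at 10.85, 11.02, 10.69 and 10.52 at E18, at 10.17, 10.80, 10.72 and 10.18 in Prominin-selected GFP-high cells, and at 10.90, 10.78 and 11.24 in Prominin-selected GFP-low cells. In ungated cells it was at 9.89, 9.42 and 10.01 in GFP-high and at 11.79, 11.81 and 10.85 in GFP-low cells. Only the ungated GFP-high arrays stood clear of the next group in this order, at the low end. Its second probe set was also lowest there, at 8.79 ± 0.22, but had ungated GFP-low cells at 10.13 ± 0.19, under Prominin-selected GFP-low cells at 10.44 ± 0.15, Prominin-selected GFP-high cells at 10.37 ± 0.21 and E18 at 10.48 ± 0.42. Neurod6 averaged 11.76 ± 0.10 at E18, 11.33 ± 0.35 and 11.72 ± 0.15 in Prominin-selected GFP-high and GFP-low cells, and 11.43 ± 0.13 and 12.38 ± 0.26 in ungated GFP-high and GFP-low cells. Its 3 ungated GFP-low arrays, at 12.11 to 12.61, were above all others, and the remaining 4 groups overlapped their neighbours.

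As a description over the 5 group means, each centred on its own mean, the root mean square difference between Eomes and Neurod4 was 0.125 on the log2 scale, the smallest among the 36 pairs of these genes; the E18 and ungated GFP-low means of Neurod4 were under the background level, and those of Eomes were not. Neurod2 and Neurod6 came next, at 0.323, and the largest difference was that of Neurog1 and Neurod2, at 2.15. Among 10178 candidate genes, those closest to Eomes were Nfatc4 at 0.0762, Neurod4 and Prom1 at 0.130, where Prom1 encodes Prominin itself. For Neurod4 they were Nfatc4 at 0.100, Gm715 and Eomes. The nearest gene to Neurog2 was Plaat3 at 0.078, followed by Sema5a and Celsr1. Neurog1 had no gene as close: Tcf7l1 differed by 0.472, Cdc25c and Gsta4 by more. Neurod1 was closest to Gcsh, Rps6 and Cep63, Neurod2 to Itsn1, Prdm8 and Drp2, and Neurod6 to Ckmt1, Slc6a6 and Nipsnap3b. The nearest gene to Nhlh1 was Ptprg at 0.192, and to Nhlh2 Tmem176b at 0.351. Several of these group means were under the background level, and distances that use them depend on the pseudocount. Among them were the E18 means of Neurog1, at 4.55, of Nhlh1 and of Nhlh2. Plaat3 was under it at E18 (4.27), in Prominin-selected GFP-low cells (6.02) and in ungated GFP-low cells (5.02). Ckmt1 was under it in all groups but ungated GFP-low cells (6.38).

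The first contrast asked how these genes differed between GFP-high and GFP-low cells within the Prominin gate at E14. Neurog1 was higher in GFP-high cells, at 9.14 ± 0.17 against 7.66 ± 0.24, and it was the only 1 of the 9 genes that passed the test. It ranked 20th of all 18193 genes by the size of its change, 2.79-fold (log2 fold change 1.48 ± 0.21, limma adjusted p = 0.00793). Over all genes 1.68% were called, 0.478% higher and 1.2% lower, and the median log2 fold change of the 9 was 0.07, against −0.01 over all genes. Eomes had groups that did not overlap, at 12.05 ± 0.04 and 11.49 ± 0.09, without passing the test (0.56 ± 0.17, adjusted p = 0.147). Nhlh2 had non-overlapping groups in the other direction, at 7.78 ± 0.38 in GFP-high and 8.70 ± 0.22 in GFP-low cells (−0.92 ± 0.27, adjusted p = 0.122). With a pseudocount of 64 both Eomes and Nhlh2 passed it (adjusted p = 0.0498 and 0.0334), and Eomes also with an intensity trend (adjusted p = 0.0489). The other 6 had log2 fold changes from −0.51 to 0.54 and adjusted p from 0.279 to 0.966. Neurog1's other probe set lay under the background level in both groups and gave −0.08 ± 0.36. The Neurog1 call ended with the mean of its probe sets (0.70, adjusted p = 0.202), with a pseudocount of 1 (adjusted p = 0.229), with the replicate number as a block (1.43, adjusted p = 0.0814) and with neither GFP-high 1 nor GFP-low 3 in the fit (adjusted p = 0.0742).

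Among the regulators placed upstream of these factors, 2 of 9 were higher in Prominin-selected GFP-high cells. Notch1, the receptor that keeps progenitors undifferentiated, was 2.00-fold higher (1.00 ± 0.15, adjusted p = 0.0108), and Pax6, an activator of Neurog2 and Eomes, 1.80-fold (0.85 ± 0.18, adjusted p = 0.0412). None of 18 neurogenin and Eomes targets and basal progenitor genes passed the test, nor did any of 14 E proteins, Id, Hes, Hey and related genes, and at an unadjusted p under 0.05 limma gave 2440 of all genes. Of the neuronal markers 7 of 14 were lower in GFP-high cells, with a summed intensity of 12300 to 14100 against 20900 to 23100 in GFP-low cells. Of the Cajal-Retzius markers, which mark early-born reelin neurons, 7 of 8 were lower, with sums of 668 to 851 against 3700 to 5250 and with 3 against 8 of the 8 genes above background. The part of those cells in the values of Nhlh2, Neurod2 and Neurod6 was not tested.

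In the ungated sorts at E14, the same contrast was wide for the progenitor-stage factors. Neurog1 was 6.90-fold higher in GFP-high cells (2.79 ± 0.36, 9.21 ± 0.53 against 6.42 ± 0.51, adjusted p = 0.00268), Eomes by 2.32 ± 0.24 on the log2 scale (12.08 ± 0.11 against 9.76 ± 0.40, adjusted p = 0.00119) and Neurog2 4.87-fold (2.28 ± 0.28, 12.40 ± 0.10 against 10.12 ± 0.52, adjusted p = 0.0022). Neurod4 was at least 3.14-fold higher (7.72 ± 0.26 against 5.53 ± 0.36, adjusted p = 0.0017). The 2 genes of postmitotic neurons were lower: Neurod2 in GFP-high cells was 3.29-fold lower (−1.72 ± 0.32, levels of 9.77 ± 0.31 against 11.49 ± 0.55, adjusted p = 0.0113) and Neurod6 1.93-fold (−0.95 ± 0.20, adjusted p = 0.0185). None of these 6 had overlapping groups. Thus 4 of 9 were called higher and 2 lower, where 15.8% of all genes were called, 7.61% higher and 8.16% lower. Neurod1 (0.75 ± 0.30, adjusted p = 0.153) and Nhlh1 (0.71 ± 0.20, adjusted p = 0.0534) did not pass the test although their groups did not overlap. Nhlh1 did pass it, at adjusted p from 0.0124 to 0.0476, under 6 alternatives, among them a pseudocount of 64, no quantile normalisation and all 17 arrays in the fit. Neurod1 passed it with an intensity trend, with all 17 arrays in the fit and without GFP-low replicate 3 (adjusted p = 0.0413, 0.0209 and 0.0238). Nhlh2 was at 7.00 ± 0.25 and 7.02 ± 0.14 (adjusted p = 0.973). The Neurod6 call ended without GFP-high replicate 2 or 3, or GFP-low replicate 1 or 2 (adjusted p from 0.0532 to 0.0721). With neither GFP-high 1 nor GFP-low 2 in the fit, the calls of Neurod6 and Neurod2 both ended (adjusted p = 0.101 and 0.0842).

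**Figure D2:**
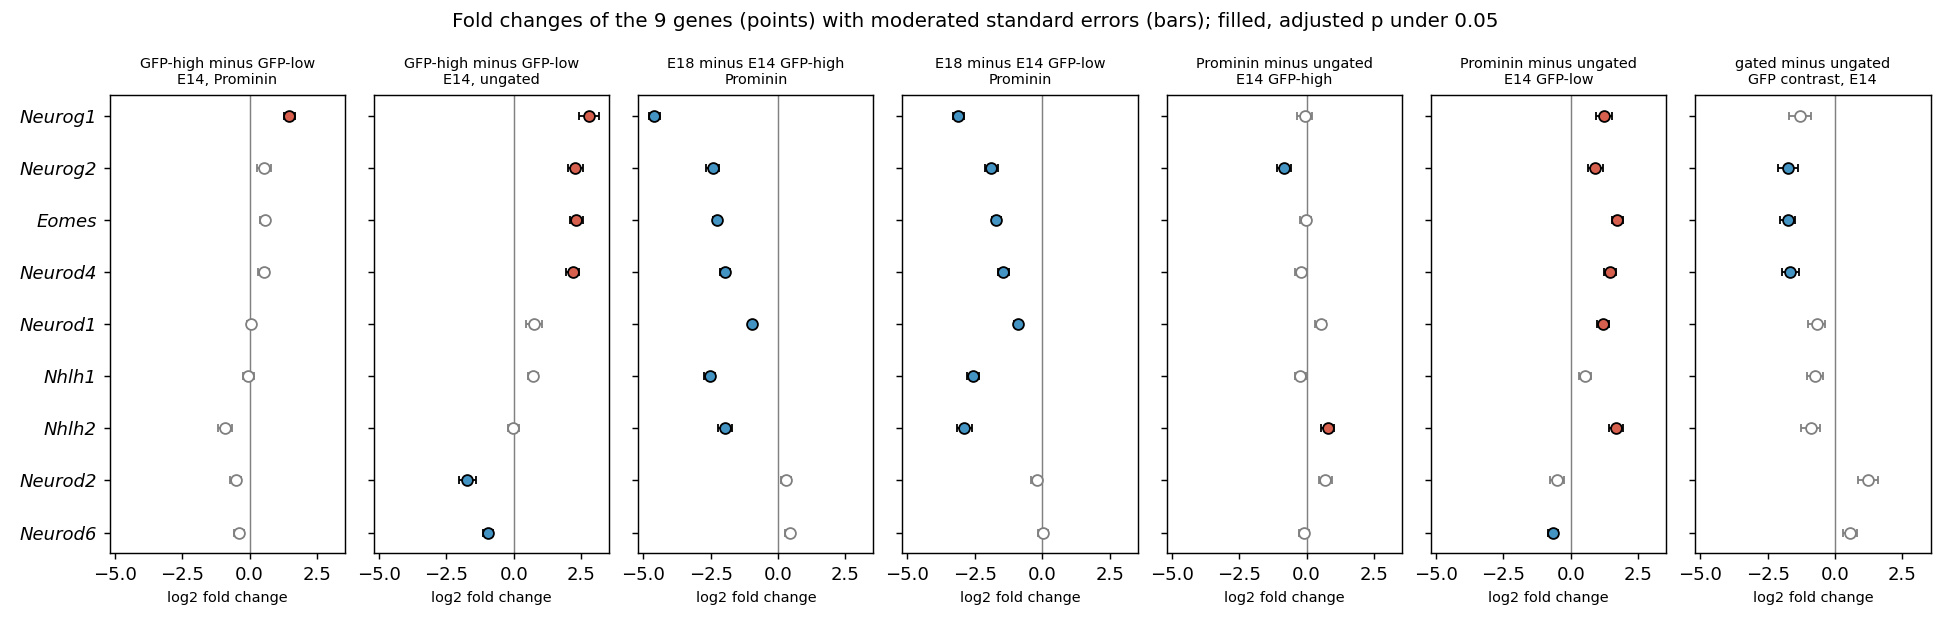
Log2 fold changes of the 9 genes (horizontal axis, 1 panel per comparison) with moderated standard errors as bars; red points were called higher and blue points lower at an adjusted p under 0.05, and open grey points were not called. The 4 upper rows are red in ungated cells, Neurog2 and Neurog1 at 2.28 and 2.79, and Neurod2 and Neurod6 lower, by 1.72 and 0.95 on the log2 scale, while both E18 panels hold 7 blue points each, of which those of Neurog1, Neurod4, Nhlh1 and Nhlh2 are against levels under background, so that their distance from 0 depends on the pseudocount.

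The upstream regulators were higher together with them in ungated GFP-high cells, with 7 of 9 called, among them Pax6 at 8.38-fold (3.07 ± 0.30), Notch1 at 7.82-fold and the pallial patterning genes Gli3 and Emx2 at 6.88-fold and 6.37-fold. Of the targets and basal progenitor genes 10 of 18 were higher and none lower. They included Gadd45g, a target of neurogenins, at 3.96-fold higher (1.99 ± 0.26), the antiproliferative gene Btg2 at 3.60-fold and Mfng, a modifier of Notch, at 3.57-fold. In the list of E proteins and inhibitors 7 of 14 were higher, with Id4 at 5.13-fold and Hes1 at 4.93-fold, while Id2 was 3.23-fold lower. All but 1 of 14 radial glia markers were higher in GFP-high cells and 13 of 14 neuronal markers were lower. The summed intensity of the neuronal markers was 7960 to 8780 in GFP-high cells against 37000 to 53400 in GFP-low cells, and that of radial glia markers was 35000 to 44500 against 7130 to 10100. How much of the 6 calls follows this make-up was not tested.

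No array is common to the gated and the ungated contrast, and their difference was tested as the gated minus the ungated GFP contrast. It was negative for Eomes (−1.76 ± 0.28, adjusted p = 0.000966), Neurog2 (−1.75 ± 0.39, adjusted p = 0.00933) and Neurod4 (−1.66 ± 0.32, adjusted p = 0.00362), whose excess in GFP-high cells was thus smaller with the gate. This made 3 of 9 genes lower and 0 higher, against 3.83% lower and 3.87% higher of all genes, 7.7% together. Neurog1 was at −1.30 ± 0.40 (adjusted p = 0.0588) and Neurod2 at 1.21 ± 0.37 (adjusted p = 0.0534), both without passing the test. Both passed it with a pseudocount of 64, without dim genes, with the mean of probe sets and with an intensity trend (adjusted p from 0.0133 to 0.0438). With the labelling kit as a covariate the values of the 3 called genes were −1.82, −1.75 and −1.79. Leaving out ungated GFP-low replicate 3 brought the number of called genes to 6, with Neurog1, Neurod1 and Neurod2 added (adjusted p = 0.0136, 0.0135 and 0.00631). The difference for Neurod4, whose ungated GFP-low level is under background, was −0.985 with the mean of its probe sets. Of the upstream regulators 7 of 9 also had a negative difference, Emx2 with −2.30 ± 0.33 and Pax6 with −2.22 ± 0.33, and 11 of 14 neuronal markers a positive one.

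The gate itself was set against its absence at each GFP level. In GFP-low cells, Prominin-selected sorts had more of 6 of the 9 genes than ungated sorts, against 10.8% of all genes called higher, and less of 1, against 8.46% called lower, 19.2% in all. Eomes was 3.30-fold higher in Prominin-selected cells (1.72 ± 0.20, 11.49 ± 0.09 against 9.76 ± 0.40, adjusted p = 5.44e-05), Nhlh2 3.21-fold (1.68 ± 0.26, 8.70 ± 0.22 against 7.02 ± 0.14, adjusted p = 0.000402) and Neurog1 2.35-fold (1.23 ± 0.29, adjusted p = 0.00769). Neurod1 was 2.30-fold higher (1.20 ± 0.22, adjusted p = 0.00146) and Neurog2 1.88-fold (0.91 ± 0.28, adjusted p = 0.0318), and Neurod4 was at least 1.89-fold higher (6.99 ± 0.22 against 5.53 ± 0.36, adjusted p = 0.000503). Neurod6 was 1.57-fold lower (−0.66 ± 0.20, adjusted p = 0.0287). The groups of these 7 genes did not overlap. Nhlh1 (0.52 ± 0.22, adjusted p = 0.118) and Neurod2 (−0.51 ± 0.27, adjusted p = 0.202) did not pass the test. Without ungated GFP-low replicate 3, Neurod2 was called lower (−0.83, adjusted p = 0.0259). The calls of Neurog2 and Neurod6 ended without single arrays: Neurog2 without replicate 1 or 3 of the Prominin-selected or replicate 1 or 2 of the ungated cells (adjusted p from 0.0823 to 0.128), and Neurod6 without replicate 2 or 3 of the Prominin-selected or replicate 1 or 2 of the ungated cells (0.0538 to 0.118). Those of Neurog1 and Neurod4 ended with the mean of a gene's probe sets (0.43 and 0.55, adjusted p = 0.313 and 0.0812), where that of Neurod1 was larger, at 1.83. With a pseudocount of 1 those of Neurog1 and Neurog2 ended (adjusted p = 0.0827 and 0.0518), and with the 13 E14 arrays alone that of Neurod6 (adjusted p = 0.0564).

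In GFP-low cells every Prominin-selected array was made with the MessageAmp II kit and every ungated array with the Affymetrix kit, so that gate and kit cannot be told apart there; a covariate for the kit rests on ungated GFP-high replicate 1. With it, 2 of the 7 calls were kept, Eomes (1.92, adjusted p = 0.0222) and Neurod4 (1.85, adjusted p = 0.0374), and the other 5 had adjusted p from 0.091 to 0.368. The log2 fold changes of those 5 were 1.31 for Neurog1, 0.94 for Neurog2, 1.38 for Neurod1, −0.88 for Neurod6 and 1.58 for Nhlh2 with the covariate. The neuronal markers, with 8 of 14 lower and 1 higher, summed to 20900 to 23100 in Prominin-selected against 37000 to 53400 in ungated GFP-low cells. Cajal-Retzius markers were higher in Prominin-selected GFP-low cells in 7 of 8 genes, their sums were 3700 to 5250 against 438 to 637, and 8 against 1 of the 8 were above background. Whether they carry the Nhlh2 difference was not tested.

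In GFP-high cells 2 of the 9 genes passed the test across the gate. Neurog2 was 1.78-fold lower in Prominin-selected cells (−0.83 ± 0.26, 11.56 ± 0.39 against 12.40 ± 0.10, adjusted p = 0.0328), and Nhlh2 was 1.72-fold higher (0.78 ± 0.25, 7.78 ± 0.38 against 7.00 ± 0.25, adjusted p = 0.0321). With 1 of 9 higher and 1 lower, the shares were near the 11.8% and 8.98% of all genes, of which 20.7% were called either way. The Neurog2 call ended without replicate 1 or 2 of the Prominin-selected or any 1 of the 3 ungated arrays (adjusted p from 0.0585 to 0.105), and the Nhlh2 call without replicate 2, 3 or 4 of the Prominin-selected or replicate 1 or 3 of the ungated cells (0.0533 to 0.141). Both also ended with the labelling kit as a covariate (−0.82 and 0.71, adjusted p = 0.224 and 0.259). Eomes was at 12.05 ± 0.04 in Prominin-selected and 12.08 ± 0.11 in ungated cells (−0.04 ± 0.19, adjusted p = 0.929). Of the upstream regulators 6 of 9 were lower and none higher in Prominin-selected cells, Sox2 by 2.84-fold (−1.51 ± 0.23) and Pax6 by 2.03-fold (−1.02 ± 0.23). Targets and basal progenitor genes moved both ways, with 6 of 18 higher and 3 lower, and Insm1, a factor that promotes basal progenitors, was 4.35-fold lower (−2.12 ± 0.25). Of the neuronal markers 9 of 14 were higher in Prominin-selected cells, with sums of 12300 to 14100 against 7960 to 8780 in ungated cells. Of the radial glia markers 7 of 14 were lower, with sums of 16700 to 20400 against 35000 to 44500, and of the ventral markers 6 of 11 were higher, with sums of 343 to 719 against 79.7 to 138. Their part in the values of Neurog2 and Nhlh2 was not tested.

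Probe sets of the same gene disagreed in several comparisons. The second Neurog1 probe set, under background in every group but ungated GFP-high cells, was not called between E18 and E14 (−0.59 ± 0.33 with GFP-high and −0.67 ± 0.36 with GFP-low cells as the E14 group), whereas the one used was called in both. The second Neurod4 probe set, under background in the same groups, was called lower at E18 against GFP-high cells (−1.27 ± 0.26) but not against GFP-low cells (−0.73 ± 0.28), nor across the gate in GFP-low cells (0.42 ± 0.35) or in the difference of contrasts (−1.18 ± 0.48). The second of Neurod2 was called higher in the difference of contrasts (1.27 ± 0.32, adjusted p = 0.0272 over all probe sets). In GFP-high cells across the gate, the second probe set of Neurod1 was higher in Prominin-selected cells by 1.87 ± 0.29 and the second of Neurod2 by 1.57 ± 0.22, both called, against 0.52 ± 0.21 and 0.70 ± 0.25 for the probe sets used. The second Neurod1 probe set had levels of 10.73 to 11.17 in Prominin-selected GFP-high cells, against 8.78, 9.49 and 9.06 in ungated ones. The array of ungated replicate 1, made with the same kit as the Prominin-selected cells, gave the 8.78. This is 1 array, and its Gapdh 3′ minus 5′ value, −0.193, was also in the range of the ungated arrays. The part of the kit in this probe set's values was not tested. In GFP-low cells across the gate, the second probe set of Neurod1 was also called higher, by 2.47 ± 0.31, against 1.20 ± 0.22 for the one used. The second of Neurod2 was not called there (0.31 ± 0.23). The second Neurog1 probe set was called lower in Prominin-selected GFP-high cells, at 5.67, 4.48, 5.37 and 4.46 against 6.56, 7.02 and 6.75, where the one used had −0.07 ± 0.27. Both Eomes probe sets gave the same calls in all 7 comparisons. The third probe sets of Neurod2 and Neurod4 were under the background level in every group and were never called, so they do not measure a difference. Which probe set of a gene reports its mRNA best was not tested.

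**Figure D3:**
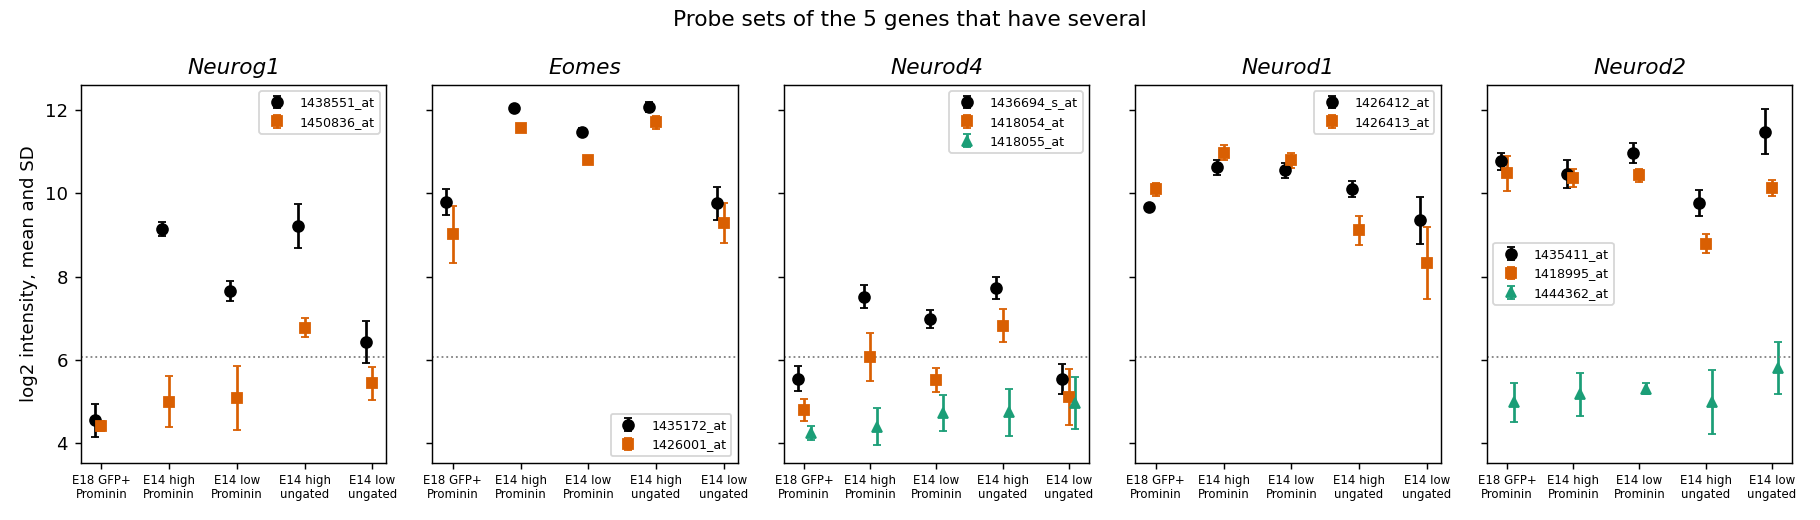
Mean and SD over arrays (vertical axis, log2 of intensity plus 16 after quantile normalisation) of every probe set of the 5 genes that have several, by group (horizontal axis); black circles are the probe sets used and the dotted line is the background level of 6.07. In Eomes both probe sets run in parallel, whereas the second probe sets of Neurod1 and Neurod2 drop in ungated GFP-high cells by 1.87 and 1.57 relative to Prominin-selected ones. That of Neurod1 also drops in ungated GFP-low cells, by 2.47 relative to Prominin-selected ones.

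Age was compared within the Prominin gate. The labels split the E14 cells by GFP level, whereas the E18 cells are labelled GFP-positive only. Both contrasts with E18 thus change the GFP gate along with age, and the parts of these cannot be told apart. At E18, 7 of the 9 genes were lower than in E14 GFP-high cells and none higher, where 26.7% of all genes were called, 16.5% lower and 10.2% higher, and the groups of these 7 did not overlap. Neurog1 was at 4.55 ± 0.39 at E18 against 9.14 ± 0.17, at least 8.38-fold lower (adjusted p = 1.25e-07). Neurog2 was 5.36-fold lower (−2.42 ± 0.23, 9.14 ± 0.40 against 11.56 ± 0.39, adjusted p = 1.42e-05), and Eomes 4.79-fold lower (−2.26 ± 0.16, 9.79 ± 0.32 against 12.05 ± 0.04, adjusted p = 1.54e-06). Nhlh1 was at least 4.93-fold lower (adjusted p = 3.35e-06), Nhlh2 at least 3.27-fold (5.82 ± 0.47 against 7.78 ± 0.38, adjusted p = 9.46e-05) and Neurod4 at least 2.72-fold (adjusted p = 1.56e-05). The fitted log2 difference of Neurog1 was −4.59 and ran from −6.26 with a pseudocount of 1 to −2.59 with the mean of its probe sets. Neurod1 was 1.94-fold lower (−0.95 ± 0.14, adjusted p = 0.000282) and stayed well above background, at 9.67 ± 0.06. The 2 genes of postmitotic neurons did not pass the test in the main fit. Neurod2 was at 10.77 ± 0.21 against 10.47 ± 0.34 (0.30 ± 0.19, adjusted p = 0.292). Neurod6 was at 11.76 ± 0.10 against 11.33 ± 0.35 (0.43 ± 0.17, adjusted p = 0.0905). Neurod6 was called higher at E18 with a larger pseudocount, without the dimmest genes and with an intensity trend (adjusted p = 0.0466, 0.0473 and 0.0372). It was also called without Prominin-selected GFP-high replicate 4 (0.57, adjusted p = 0.0256). The other alternatives gave no call for Neurod6, with adjusted p up to 0.267.

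Against E14 GFP-low cells 7 of the 9 genes were called lower and none higher, where 17.4% of all genes were called, 11.4% lower and 6.02% higher. This comparison shares the E18 arrays with the one before. Nhlh2 was at least 6.19-fold lower at E18 (5.82 ± 0.47 against 8.70 ± 0.22, adjusted p = 3.38e-05), Nhlh1 at least 5.06-fold (adjusted p = 2.2e-05) and Neurog1 at least 3.00-fold (4.55 ± 0.39 against 7.66 ± 0.24, adjusted p = 7.21e-06). Neurog2 was 3.70-fold lower at E18 (−1.89 ± 0.25, adjusted p = 0.000391), Eomes 3.25-fold (−1.70 ± 0.17, adjusted p = 6.76e-05) and Neurod1 1.84-fold (−0.88 ± 0.15, adjusted p = 0.00178), and Neurod4 was at least 1.89-fold lower (adjusted p = 0.000624). Neurod2 was at 10.77 ± 0.21 against 10.97 ± 0.24 (adjusted p = 0.564) and Neurod6 at 11.76 ± 0.10 against 11.72 ± 0.15 (adjusted p = 0.933). All 7 falls at E18 were called in every alternative run for either comparison, although with the mean of a gene's probe sets the fitted differences of Neurod4 were −1.13 and −0.88, and that of Neurog1 against GFP-low cells was −1.80, where the fit with 1 probe set gave −3.11.

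The genes around this cascade fell with it in part. Of the upstream regulators 7 of 9 were lower at E18 than in E14 GFP-high cells, Notch1 by 4.38-fold (−2.13 ± 0.14, adjusted p = 1.12e-06) and Pax6 by 3.18-fold (−1.67 ± 0.17), and 6 of 9 were lower than in E14 GFP-low cells. Of the targets and basal progenitor genes 13 of 18 were lower than in GFP-high cells and 1 was higher. Gadd45g was 5.51-fold lower (−2.46 ± 0.21, 8.50 ± 0.28 against 10.96 ± 0.42) and Mfng 5.49-fold lower, whereas Cux2, a factor of upper layer neurons that basal progenitors also express, was 3.99-fold higher (2.00 ± 0.15, 10.98 ± 0.13 against 8.99 ± 0.23). Against GFP-low cells 7 of 18 were lower, and Cux2 was again the 1 that was higher. Among E proteins and inhibitors 6 of 14 were lower and 3 higher than in GFP-high cells, with Hey1 3.86-fold lower, and Id2 1.95-fold and Id3 at least 1.63-fold higher.

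**Figure D4:**
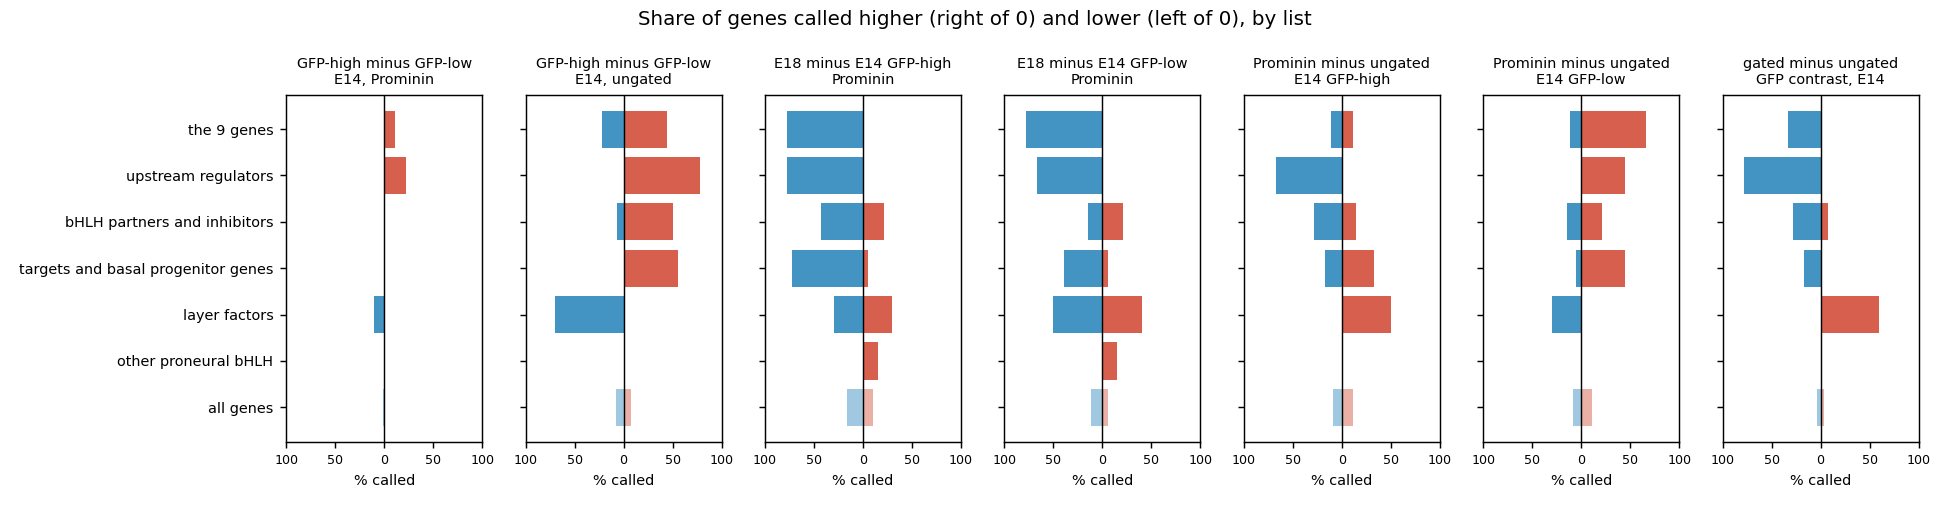
Share of each gene list called higher (red, right of 0) and lower (blue, left of 0) at an adjusted p under 0.05, in percent of its measured genes (horizontal axis), for the 9 genes and 5 related lists (rows) and all genes in pale colours, in the 7 comparisons (panels). At E18 against E14 GFP-high cells 7 of the 9 genes and 7 of 9 upstream regulators are on the blue side, against 16.5% of all genes.

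Markers of other cell types also moved between the ages. Of 14 neuronal markers 11 were higher at E18 than in E14 GFP-high cells, with summed intensities of 23900 to 27400 against 12300 to 14100, and of 14 radial glia markers 9 were lower and 2 higher, with sums of 11400 to 15600 against 16700 to 20400. Against E14 GFP-low cells 5 neuronal markers were higher and 2 lower, and 6 radial glia markers were lower and 3 higher, among them Fabp7, a fatty acid binding protein of radial glia, at 3.36-fold. Of 8 Cajal-Retzius markers 6 were lower than in GFP-low cells, with sums of 912 to 1620 against 3700 to 5250, and against GFP-high cells, with 668 to 851, 3 were higher and 2 lower. Markers of the ventral forebrain and interneurons summed to 3050 to 3440 at E18, against 343 to 719 in GFP-high and 510 to 867 in GFP-low cells at E14, with 7 of 11 above background at E18 and 5 and 7 at E14. Markers of the oligodendrocyte lineage summed to 1560 to 2700, against 116 to 140 and 82.0 to 134, with 3 of 6 above background at E18 and none at E14. Their part in the 7 falls was not tested. Without quantile normalisation the median of all genes in E18 against E14 GFP-high cells shifted by 0.102 on the log2 scale, to 0.04, and all 7 genes were still called lower.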

How the data were processed

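Total RNA of 17 sorted samples was labelled and hybridised, 1 array per sample. The intensity values used, 1 linear signal for each of 45101 probe sets, are those the authors deposited. The summarisation software is not given in the sources used here, and the trimmed mean of 150.0 on every array shows a global scaling. The table holds 64 control probe sets, used for the control signals alone, and 45037 others, of which 34945 had 1 gene symbol, 932 several and 9160 none listed. Symbols came from the platform annotation, 34741 of these probe sets matched a RefSeq gene table by Entrez identifier, and all 9 genes kept their symbol.

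A pseudocount of 16 was added, log2 taken and quantiles normalised over all non-control probe sets, since the medians of the arrays spanned 0.603 (log2). A gene with several probe sets was read from the one of highest mean. limma 3.58.1 in R 4.3.3 (lmFit, eBayes, two-sided) was fitted over all 18193 genes, with Benjamini-Hochberg adjustment and calls at an adjusted p under 0.05. The fit for contrasts within the Prominin-selected groups had 11 arrays, that for the ungated GFP contrast 6 and that for the others 17, with 7 contrasts in all. The procedure was tested on simulated data. Figures were drawn with matplotlib 3.10.9 in Python 3.11.15. The number of arrays limits the precision.

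The members, lists and tests were chosen with earlier results of these data known. All 9 genes are reported whatever their result. Of other lists, counts of all measured members are given, with examples from the up to 4 genes of lowest p per list and comparison. Replicate numbers are shared between groups, but over 27 pairs of arrays with the same number the correlation of deviations from group means was −0.144 to 0.0402, so the main fits have no replicate block. No pair of arrays was identical. Alternatives were other pseudocounts, no quantile normalisation, no dim genes, other use of probe sets, an intensity trend, the replicate block, the labelling kit, other arrays in the fit and leaving out arrays.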

Additional observations from a re-analysis of the deposited data

Results flagged for a closer look

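In 3 of 32 groups of 4 arrays, taken per probe set, 1 array lay far from the others; chance gives about 1 in 20. The Eomes level of E14 Prominin-selected GFP-high replicate 4 was 12.11, where the others were at 12.02 to 12.03. Neurod4 was at 5.10 on E18 replicate 2, against 5.66 to 5.73 on the others, and its dimmest probe set was at 5.06 on E14 Prominin-selected GFP-high replicate 3, where the other 3 were close together, from 4.11 upwards. Groups of 3 arrays were not checked this way. In ungated GFP-low cells, replicate 3 was at 10.22 for Eomes, against 9.53 and 9.54. For Neurog2 it was at 10.72, against 9.78 and 9.84, and for Neurog1 at 7.02, against 6.10 and 6.16. For Neurod1 it was at 9.98, against 8.90 and 9.16, and for Neurod2 at 10.85, against 11.79 and 11.81. For Neurod6 it was at 12.11, against 12.41 and 12.61, for Nhlh1 at 8.05, against 7.68 and 7.94, and for Nhlh2 at 7.15, against 6.87 and 7.03. For Neurod4 it was at 5.27, near replicate 2 at 5.38, with replicate 1 at 5.94, all under the background level.

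The contrast of GFP-high with GFP-low cells at E14 differed with and without the Prominin gate for 3 genes by limma's test of the difference, with values of −1.76 for Eomes, −1.75 for Neurog2 and −1.66 for Neurod4 on the log2 scale. The ungated GFP-low level of Neurod4 is under background, so the size of its value depends on the pseudocount.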

How the results depend on the processing

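Of 1107 values of the 9 genes in 123 combinations of comparison and alternative, 1000 kept their direction and their side of the threshold, 45 lost the call, 45 gained it and 17 changed sign. In the Prominin-selected GFP contrast the number of called genes, 305, became 74 with a pseudocount of 1, 554 with 64, 510 without the dimmest 40% of genes, 182 with all probe sets, 143 with the mean of probe sets, 466 with an intensity trend, 8 with the replicate block, 6 without GFP-high 1 and GFP-low 3, and 76 to 228 without 1 array (129, 109 and 76 without GFP-high 1, 3 or 4, and 85, 90 and 78 without GFP-low 1, 2 or 3). Called members there, 1, became 0 with a pseudocount of 1, the mean of probe sets, the replicate block and without those 2 arrays, 3 with 64, 2 with a trend, and stayed 1 to 1 without 1 array. In the ungated contrast, 2869 genes became 1867 with the block, 1841 with the kit and 1257 without GFP-high 1 and GFP-low 2 (1841 to 2854 without 1 array, lowest at 1841 and 1894 without GFP-high 1 or 3, and 5 to 7 members). For E18, 4850 and 3166 became 3083 and 1128 with the block (4028 to 4599 and 2286 to 3056 without 1 array, members 7 to 8 and 7 to 7). Between gated and ungated GFP-high cells, 3774 became 1688 with the kit (2775 to 3519 without 1 array), and members, 2, became 0 with a pseudocount of 1 and with the kit, 4 with 64, without dim genes and with a trend, 5 with the mean of probe sets, 1 without quantiles and with the block, and 0 to 2 without 1 array. In GFP-low cells 3496 became 373 and 7 members 2 with the kit (2420 to 3817 and 5 to 8 without 1 array). In the difference of contrasts, 1400 became 1033 to 1729 without 1 array, and 3 members became 6 with a pseudocount of 64, 5 without dim genes, with the mean of probe sets and with a trend, and 3 to 6 without 1 array.

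Changes of sign were all in values not called. In the Prominin-selected GFP contrast Neurod1 was −0.053 without GFP-high 1 and GFP-low 3 and −0.033 to 0.15 without 1 array, below 0 without GFP-low 3, and Nhlh1 was −0.198 to 0.091 without 1 array, above 0 without GFP-high 2, GFP-low 1 or GFP-low 2. Ungated, Nhlh2 was 0.050 without quantiles and −0.119 to 0.122 without 1 array, above 0 without GFP-high 3 or GFP-low 3. At E18 against GFP-low cells Neurod6 was −0.137 without quantiles, −0.100 with the block and −0.052 to 0.085 without 1 array, below 0 without GFP-low 3 or E18 4. Between gated and ungated GFP-high cells, Eomes was 0.095 and Neurod4 0.054 with the kit, Neurog1 was −0.326 to 0.206 without 1 array, above 0 without ungated 2 or gated 3, and Neurod6 was −0.239 to 0.044, above 0 without gated 1.

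Whether the replicate numbers pair the samples is not in the labels, and the correlation of deviations was at most 0.0402. With the block, Neurog1 in the Prominin-selected GFP contrast was 1.43 (adjusted p = 0.0814), ungated Neurod6 −0.95 (0.0581) and Nhlh2 across the gate in GFP-high cells 0.61 (0.0555), all without a call. Nhlh2 gained a call in the difference of contrasts (−1.08, adjusted p = 0.0473), and no other member's call changed. The kit was not run as a covariate within the Prominin-selected arrays, all of 1 kit. The cause was not tested for any of these changes. Signal near background limits Neurog1, Neurod4, Nhlh1 and Nhlh2 at E18 and Neurod4 in ungated GFP-low cells.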

Other observations

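A further list held 13 measured bHLH genes, not all of them genes of cortical neurogenesis or the glial lineage, such as Msgn1 and Ascl2. None of the 13 was above background in any E14 group. At E18, Olig1 was at 10.61 ± 0.31, against 5.42 ± 0.21 in E14 GFP-high and 5.07 ± 0.82 in GFP-low cells (SD, n = 4, 4 and 3), and Olig2 was at 7.92 ± 0.45 against 5.25 ± 0.54 and 5.06 ± 0.37. Both were called by limma in either comparison. Against GFP-high cells Olig1 was at least 23.3-fold (limma adjusted p = 4.9e-07) and Olig2 at least 3.61-fold higher (limma adjusted p = 3.46e-05). They were the only 2 of the 13 genes called. Of all genes 10.2% were called higher against GFP-high and 6.02% against GFP-low cells.

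Factors of cortical layers, which act downstream in neurons, moved both ways with age. Fezf2, of deep-layer neurons, was lower at E18 than in E14 GFP-high cells (log2 fold change −3.59 ± 0.32, 7.59 ± 0.78 against 11.17 ± 0.31, adjusted p = 7.63e-06), while Mef2c was 4.77-fold higher (2.25 ± 0.19, adjusted p = 6.47e-06) and Pou3f2, of upper layers, 3.53-fold higher (1.82 ± 0.24, adjusted p = 0.00012). Of the 10 measured, 3 were higher and 3 lower, where 10.2% of all genes were called higher and 16.5% lower. Against E14 GFP-low cells 4 were higher and 5 lower, where 6.02% of all genes were called higher and 11.4% lower. In ungated GFP-high cells 7 of 10 were lower than in GFP-low cells, among them Bcl11b at 6.01-fold lower (−2.59 ± 0.22) and Sox5 at 5.98-fold lower (−2.58 ± 0.18). Of all genes 8.16% were called lower there.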
